A study of Mus musculus with 18 samples.

Results

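The genes described here encode the cytosolic ribosomal proteins, the RNA-binding subunits from which every ribosome is built. Members were the protein-coding genes whose symbol is Rpl or Rps, an optional p, a number and at most the letter a or x, with a mean of at least 1 FPKM over the 18 libraries. They were thus chosen by their measured mean level, which is given as a description only. FPKM is the number of fragments corrected for gene length and for library size. All 75 symbols of that form passed, out of 54532 genes in the table, so the level limit removed no row and no row lies just outside it. They comprise 46 proteins of the large subunit and 29 of the small subunit, and lie on 19 chromosomes, with 14 on chromosome 7 and 4 on the X. Symbols with another ending (such as paralogs, pseudogenes, Rpsa and Rack1) were not members.

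The study followed mouse ES-E14TG2a cells, a blastocyst-derived embryonic stem cell line, in 3 versions named Arf-B, Arf-C and Ctrlv2. Poly(A) RNA was sequenced at day 8 and at day 0, with 3 libraries per line and day, which gives 6 groups: Arf-B at day 8 and day 0, Arf-C at day 8 and day 0, and Ctrlv2 at day 8 and day 0. Cells were grown on gelatine in serum with leukaemia inhibitory factor. From day 0 they received activin A (20 ng/mL) with Matrigel, and from day 4 to day 8 retinoic acid (given as 5 μM/ml in the labels) with FGF10 (10 ng/mL), a protocol directed to posterior foregut endoderm. Every library carries the genotype label wild type, and how the Arf lines were made, or whether each is a single clone, is not stated by the labels. Whether replicates are cultures grown apart is not stated either, so all p-values measure the spread between these libraries, which may be technical.

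As background, a ribosome needs nearly all of its proteins in equal number, and the genes for them are spread over the genome yet are expressed at similar, high levels. Their mRNAs begin with a stretch of pyrimidines at the cap, the 5′ TOP motif, through which mTOR signalling and the RNA-binding protein Larp1 control their translation. Pluripotent stem cells make ribosomes at a high rate. Several ribosomal proteins also bind Mdm2, the ubiquitin ligase that degrades p53, and Arf, the alternative-frame product of Cdkn2a, binds Mdm2 as well.

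Libraries held 10432590 to 33311220 reads on genes, and the day-8 libraries were the shallower ones in each line. Summed stem cell markers (7 of 7 in the table, none at 0 in any group) were lower at day 8 in all 3 lines, at 153 to 211 FPKM in Arf-B, 125 to 232 FPKM in Arf-C and 46.1 to 56.4 FPKM in Ctrlv2 at day 8, against 1879 to 2434 FPKM over the day-0 libraries. Primitive and parietal endoderm markers (6 of 6 in the table) already differed between the lines at day 0. They then summed to 44.6 to 54.7 FPKM in Arf-B, 45.8 to 51.0 FPKM in Arf-C and 126 to 145 FPKM in Ctrlv2. Their sums were 99.9 to 103 FPKM in Arf-B, 101 to 111 FPKM in Arf-C and 343 to 463 FPKM in Ctrlv2 at day 8. Definitive endoderm and foregut markers (7 of 7) summed to 25.1 to 27.1, 26.8 to 30.2 and 38.2 to 45.7 FPKM in the same 3 groups, and pancreatic progenitor markers (5 of 5) to no more than 4.84 FPKM. Markers of dividing cells (5 of 5) summed to 261 to 287 FPKM over the day-8 libraries, against 526 to 633 FPKM over the day-0 libraries. The Cdkn2a row, which covers both Arf and Ink4a transcripts and so does not check the labels, averaged 42.7 ± 2.33 FPKM in Arf-B, 44.1 ± 1.96 FPKM in Arf-C and 32.9 ± 1.22 FPKM in Ctrlv2 at day 8, against 1.99, 2.29 and 2.72 FPKM in those lines at day 0 (SD, n = 3 libraries). The part of these cell-state differences in the results below was not tested.

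Ribosomal protein genes were among the most abundant rows of the table. The median member had a mean level of 437 FPKM, 8 members reached 1000 FPKM, and 60 lay between 100 and 1000 FPKM. The 5 highest were Rplp1 (2576 FPKM, an acidic protein of the large-subunit stalk that recruits elongation factors), Rpl8 (1436 FPKM, large subunit), Rps15 (1407 FPKM, small subunit), Rpl4 (1361 FPKM, which lines the exit tunnel) and Rps2 (1121 FPKM, at the mRNA entry channel). Together these 5 held 19.9% of the FPKM summed over all members, and the top 20 held 53.8%. All 75 members had reads in every library. They took 6.35 ± 0.17% of the reads on genes in Arf-B at day 8 and 6.95 ± 0.31% at day 0. The shares were 6.76 ± 0.21% at day 8 and 7.06 ± 0.88% at day 0 in Arf-C, and 6.61 ± 0.25% at day 8 and 7.08 ± 0.46% at day 0 in Ctrlv2 (SD, n = 3 libraries). The difference between the days was thus within the spread of the day-0 libraries in Arf-C. In Ctrlv2 the libraries also overlapped, at 6.38% to 6.88% at day 8 and 6.56% to 7.44% at day 0. Those of Arf-B did not, at 6.18% to 6.52% at day 8 and 6.60% to 7.20% at day 0.

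**Figure D1:**
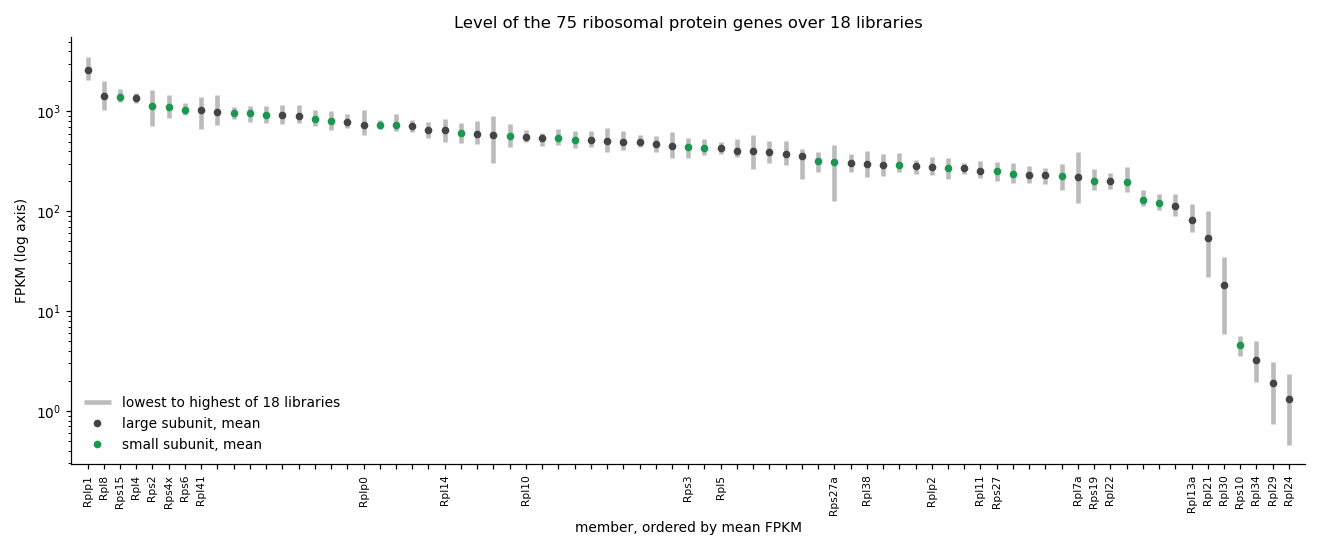
Mean level of each of the 75 ribosomal protein genes over the 18 libraries, on a log axis in FPKM, with a bar from the lowest to the highest library, the subunit by colour and names for the 5 highest, the 5 lowest and a few others described in the text. The level runs from 1.33 FPKM (Rpl24) to 2576 FPKM (Rplp1), and 5 members lie below 20 FPKM.

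The 5 lowest members stood far below the rest: Rpl24 (1.33 FPKM), Rpl29 (1.91 FPKM), Rpl34 (3.26 FPKM), Rps10 (4.54 FPKM) and Rpl30 (18.5 FPKM). All of them encode core subunits of the cytosolic ribosome. Like most members, they share much of their sequence with other genes. Of the 50-base stretches of the coding sequence, 99.3% for Rpl24, 90.3% for Rpl29, 71.5% for Rpl34, 92.4% for Rps10 and 83.3% for Rpl30 were found without a difference in at least 1 other gene of the reference transcripts (GENCODE vM21). Over all 75 members, the shared percentage and the mean level had a Spearman correlation of -0.23 (a description across genes). For 2 of the 5, a processed pseudogene, which is a copy of an mRNA pasted back into the genome, had a far higher row than the gene. Rpl34-ps1 (chr6:71124610-71124963) averaged 1269 FPKM, and Rps10-ps2 (chr16:20822145-20822640) averaged 470 FPKM. The pseudogene rows of Rpl30 summed to 12.9 FPKM and those of Rpl29 to 0.068 FPKM, both below the gene, and Rpl24 had none. The part of shared sequence in these low levels was not tested.

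The mRNAs and these copies differ at few positions, which is shown here for the 3 pairs with the most uneven levels, in 60-base stretches of the coding strand with the bases that differ in capitals. Over the bases compared, Rpl34 and Rpl34-ps1 differ at 2 of 354, Rps10 and Rps10-ps2 at 5 of 496, and Rpl21 and Rpl21-ps15 at 3 of 483.
Rpl34 (chr3:130726831-130730398, minus strand; bases 102 to 161 of the coding sequence): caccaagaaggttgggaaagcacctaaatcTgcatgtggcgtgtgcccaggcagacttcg
Rpl34-ps1 (chr6:71124610-71124963, plus strand): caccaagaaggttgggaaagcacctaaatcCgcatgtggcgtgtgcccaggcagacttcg
Rps10 (chr17:27630418-27636669, minus strand; bases 379 to 438): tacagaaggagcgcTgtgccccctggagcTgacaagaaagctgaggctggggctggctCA
Rps10-ps2 (chr16:20822145-20822640, minus strand): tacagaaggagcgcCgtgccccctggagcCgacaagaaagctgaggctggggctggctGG
Rpl21 (chr5:146832890-146837032, plus strand; bases 319 to 378): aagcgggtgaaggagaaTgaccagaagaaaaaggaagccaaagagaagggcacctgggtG
Rpl21-ps15 (chrX:151215167-151215649, minus strand): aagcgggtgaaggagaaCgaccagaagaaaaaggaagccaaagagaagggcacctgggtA

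The table holds 286 rows for pseudogenes named for 58 of the 75 members. In 7 members the highest of these rows lay above the gene itself. Besides Rpl34, Rps10 and Rpl21 (54.5 FPKM, against 324 FPKM for Rpl21-ps15), they were Rps13 (130 FPKM, against 351 FPKM for Rps13-ps1), Rpl3 (455 FPKM, against 903 FPKM for Rpl3-ps1), Rps12 (238 FPKM, against 462 FPKM for Rps12-ps3) and Rpl17 (576 FPKM, against 590 FPKM for Rpl17-ps3). At least 90% of the 50-base stretches were shared with another gene in 42 members, between 10% and 90% in 29, and under 10% in 4, among them Rpl8, Rps3 and Rpl41. The sources used here do not state how reads that match several places were counted. The levels and changes of members with shared stretches are thus uncertain, also outside those 42, as for Rpl34 (71.5% shared). Of Rpl8 and Rps3, 8.69% and 8.05% of the stretches were shared.

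**Figure D2:**
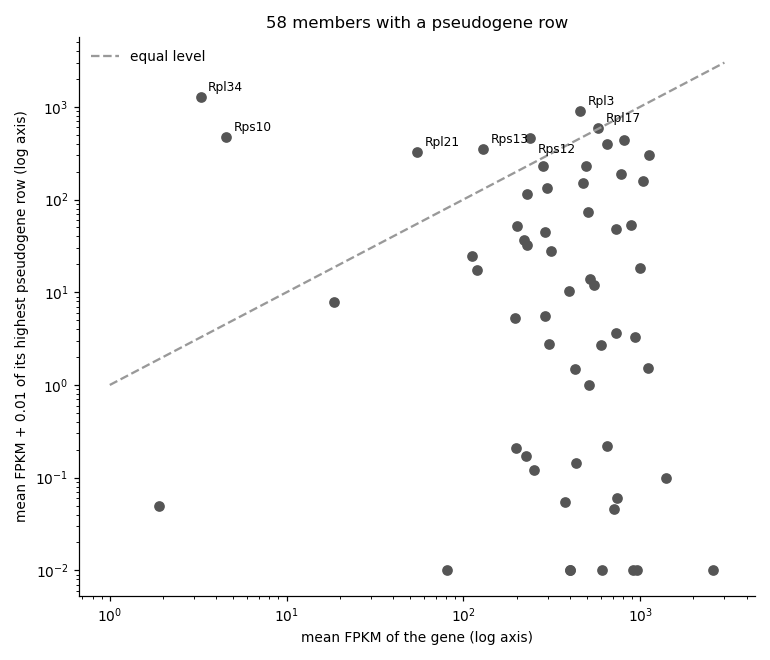
Level of 58 ribosomal protein genes (x axis) against that of the highest pseudogene row named for each (y axis, plus 0.01), both as the mean FPKM over 18 libraries on log axes. In 7 genes the pseudogene lies above the line of equal level, and Rpl34 and Rps10 lie farthest from it.

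Replicates of a group agreed closely for most members and moved as a block from library to library. The median within-group standard deviation was 0.122 on the log2(FPKM + 1) scale, and 5 members exceeded 0.3 (Rpl30, Rpl7a, Rps27a, Rpl17 and Rpl21). Over all members, the shared percentage and this SD had a Spearman correlation of 0.12. In the Arf-C day-0 group, 71 of 75 members lay below the group mean in replicate 1, with a median deviation of -0.20, and 74 lay above it in replicate 2, with a median of 0.18. The same deviation over all genes tested was 0.00 in both libraries. Over the 18 libraries, 36 members had a correlation of at least 0.8 with the median of the other members (a description, since all points share libraries and depth). Those least like the rest were Rps19 (r = -0.34), Rps10 (r = -0.32) and Rps27 (r = -0.22). Among 17125 other genes tested, the 3 most like the members' median were Ndufs7 (r = 0.96, a subunit of respiratory complex I), Eif3k (r = 0.96, of the initiation factor eIF3) and Eef1g (r = 0.95, of the elongation factor eEF1).

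**Figure D3:**
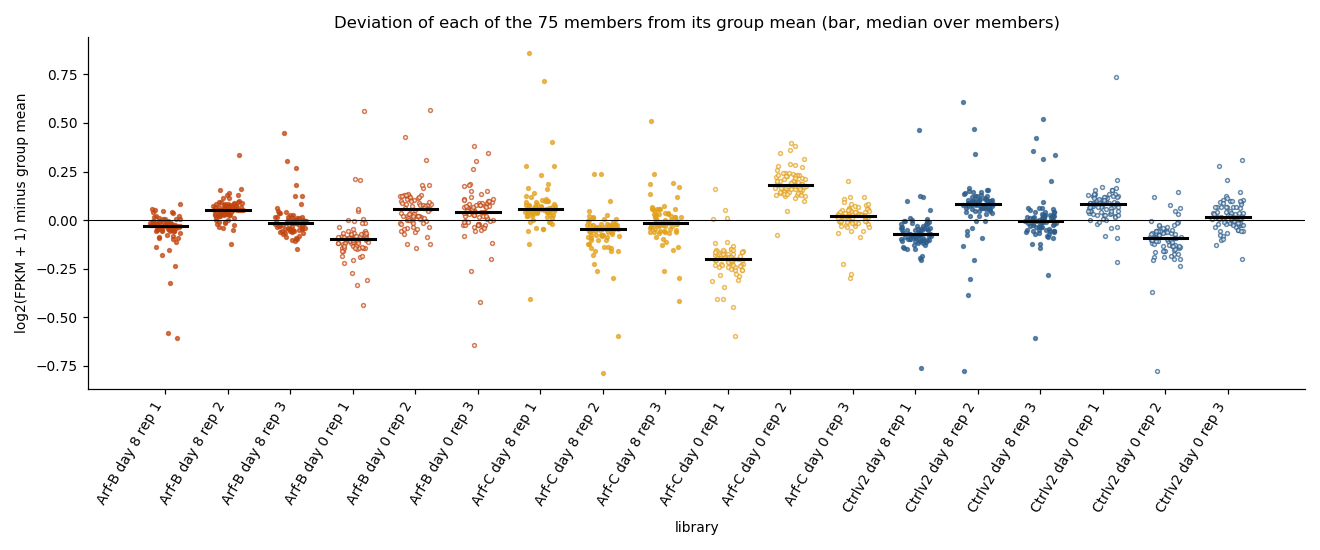
Deviation of each of the 75 members from its group mean, on the log2(FPKM + 1) scale, in each of the 18 libraries. Most members lie on the same side of 0 within a library, with Arf-C day-0 replicates 1 and 2 farthest apart, at medians of -0.20 and 0.18.

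The first question was how the ribosomal protein genes changed over the 8 days of differentiation in each line. Between 30 and 40 of the 75 members fell in each line, by modest amounts, and no more than 2 rose. In Arf-B, 40 members fell and 0 rose at adjusted p under 0.05 (limma on log2(FPKM + 1), Benjamini-Hochberg over the 17200 genes tested), where 33.8% of all genes tested fell and 32.9% rose (66.7% in either direction). In Arf-C, 32 fell and 1 rose, against 33.8% and 32.8% of all genes (66.6% in either direction). In Ctrlv2, 30 fell and 2 rose, against 34.4% and 33.9% of all genes (68.3% in either direction). A share of 42.7% (Arf-C) or 40% (Ctrlv2) of members falling is thus near that of all genes, while the share that rose was 0%, 1.33% and 2.67% in Arf-B, Arf-C and Ctrlv2. The median change of the members was -0.29 in Arf-B, -0.20 in Arf-C and -0.19 in Ctrlv2 (log2), beside -0.02, -0.02 and -0.01 over all genes tested. The count lower in Arf-C was 17 without Arf-C day-0 replicate 2 and 19 without Arf-C day-8 replicate 2, and that in Ctrlv2 was 18 without Ctrlv2 day-8 replicate 1 and 19 without Ctrlv2 day-0 replicate 1. In bulk RNA, fewer cells of a type and less RNA per cell cannot be told apart.

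The size of this drift depended on the scaling. The deposited FPKM do not sum to the same total in each library. When every library was put to the same total of reads on genes, the counts of fallen and risen members became 20 and 3 in Arf-B, 15 and 8 in Arf-C, and 18 and 5 in Ctrlv2. At that scaling 26.4%, 26.6% and 30.4% of all genes fell and 39.3%, 38.3% and 36.9% rose in these lines, so the members' 26.7%, 20% and 24% that fell were near or below the share of all genes. The median changes were then -0.12, -0.03 and -0.10, while the median over all genes shifted to 0.10, 0.10 and 0.05. With every library's FPKM put to an equal sum, 20 fell and 9 rose in Arf-B, 14 fell and 17 rose in Arf-C, and 17 fell and 13 rose in Ctrlv2. At that scaling 21.1%, 21.8% and 25.8% of all genes fell and 37%, 35.2% and 33.7% rose, and the share of members that rose (12%, 22.7% and 17.3%) was below that of all genes in each line. None of the members that fell in the deposited scaling had a positive change under either. Relative to the median of all genes, the members lay lower in every line under all 3 scalings.

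Of the 75 members, 53 had a negative change in all 3 lines, and 17 fell in each of them, among them Rpl8, Rps2, Rpl36, Rpl32, Rplp0, Rpl14, Rpl6, Rpl10a, Rpl3, Rpl5, Rpl27, Rpl12, Rpl39, Rpl15, Rps24 and Rpl34. Their changes ran from -0.88 to -0.28 in Arf-B, from -0.71 to -0.22 in Arf-C and from -0.78 to -0.18 in Ctrlv2. Of these 17, 6 (Rps2, Rpl8, Rpl14, Rplp0, Rpl3 and Rps24) also fell in all 3 lines under both other scalings. They were picked out after their values were seen. With the reads of its pseudogene rows added, Rpl34 kept its call in Arf-C and lost it in Arf-B (-0.25) and Ctrlv2 (-0.15).

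**Figure D4:**
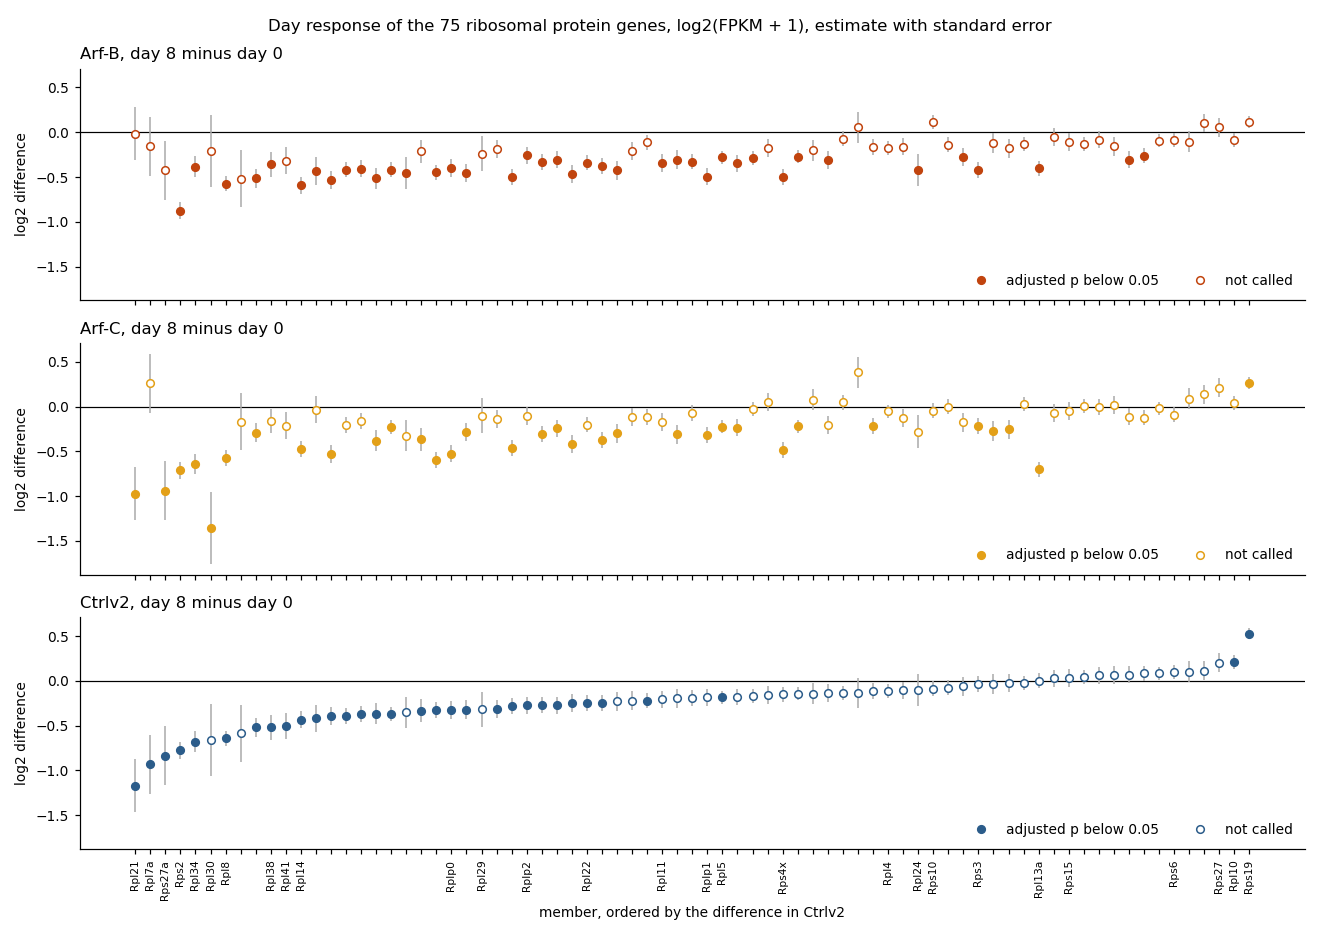
Change from day 0 to day 8 in log2(FPKM + 1) for each of the 75 members in Arf-B (top), Arf-C (middle) and Ctrlv2 (bottom), in the same order in each panel, with some members named. Filled points passed the test (40 lower in Arf-B, 32 lower and 1 higher in Arf-C, 30 lower and 2 higher in Ctrlv2).

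On the log2(FPKM + 1) scale, Rps2, a small-subunit protein at the mRNA entry channel (chr17:24718116-24721929, mm10), had the largest fall of these 17 in each line. By group means, Rpl34 fell more in Arf-C (-44.5%, against -39.4% for Rps2) and in Ctrlv2 (-47.6%, against -41.6%). Of the Rps2 stretches, 84.2% are shared with other genes, and Rps2-ps13 averaged 303 FPKM, so its level is uncertain. The level of Rps2 was 777, 785 and 709 FPKM at day 8, against 1265, 1377 and 1543 FPKM at day 0 in Arf-B. In Arf-C it was 864, 859.6 and 809 FPKM at day 8, against 1235, 1621 and 1322 FPKM at day 0. In Ctrlv2 it was 858, 829 and 898 FPKM at day 8, against 1574, 1462 and 1393 FPKM at day 0. Every day-8 library thus lay below every day-0 library, also across lines. The log2 changes were -0.88 ± 0.09 in Arf-B, -0.71 ± 0.09 in Arf-C and -0.78 ± 0.09 in Ctrlv2 (± SE), with adjusted p of 5.10e-07, 5.50e-06 and 1.88e-06.

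Rpl8, a large-subunit protein near the peptidyl transferase centre (chr15:76904078-76906314), had 1119, 1215 and 1146 FPKM at day 8, against 1635, 1749 and 1799 FPKM at day 0 in Arf-B. The Arf-C libraries had 1222, 1169 and 1137 FPKM at day 8, against 1522, 2035 and 1725 FPKM at day 0. Those of Ctrlv2 had 1037, 1138 and 1096 FPKM at day 8, against 1791, 1604 and 1713 FPKM at day 0. As with Rps2, the day-8 and day-0 values did not overlap in any line. Unlike Rps2, Rpl8 has few shared stretches (8.69%). Rpl8 fell by 0.57 in Arf-B, by 0.57 in Arf-C and by 0.64 in Ctrlv2 (log2, limma, adjusted p 2.18e-05, 2.32e-05 and 6.11e-06).

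Rpl14, a large-subunit protein (chr9:120571444-120574654), averaged 507 ± 12.7 FPKM at day 8 and 764 ± 52.2 FPKM at day 0 in Arf-B, 535 ± 21.8 FPKM and 749 ± 109 FPKM in Arf-C, and 564 ± 50.7 FPKM and 762 ± 46.6 FPKM in Ctrlv2, with day 8 first in each pair (SD, n = 3). It fell in each line without overlap, with log2 changes of -0.59, -0.47 and -0.43. Of the Rpl14 stretches, 77.9% are shared with another gene, and Rpl14-ps1 averaged 400 FPKM, so its level is uncertain. Rpl3, which sits close to the peptidyl transferase centre, fell by 0.53, 0.53 and 0.39 in Arf-B, Arf-C and Ctrlv2, and Rps24, a small-subunit protein mutated in some patients with Diamond-Blackfan anaemia, fell by 0.45, 0.60 and 0.33. For Rpl3, the higher level of Rpl3-ps1 leaves the assignment of reads uncertain.

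**Figure D5:**
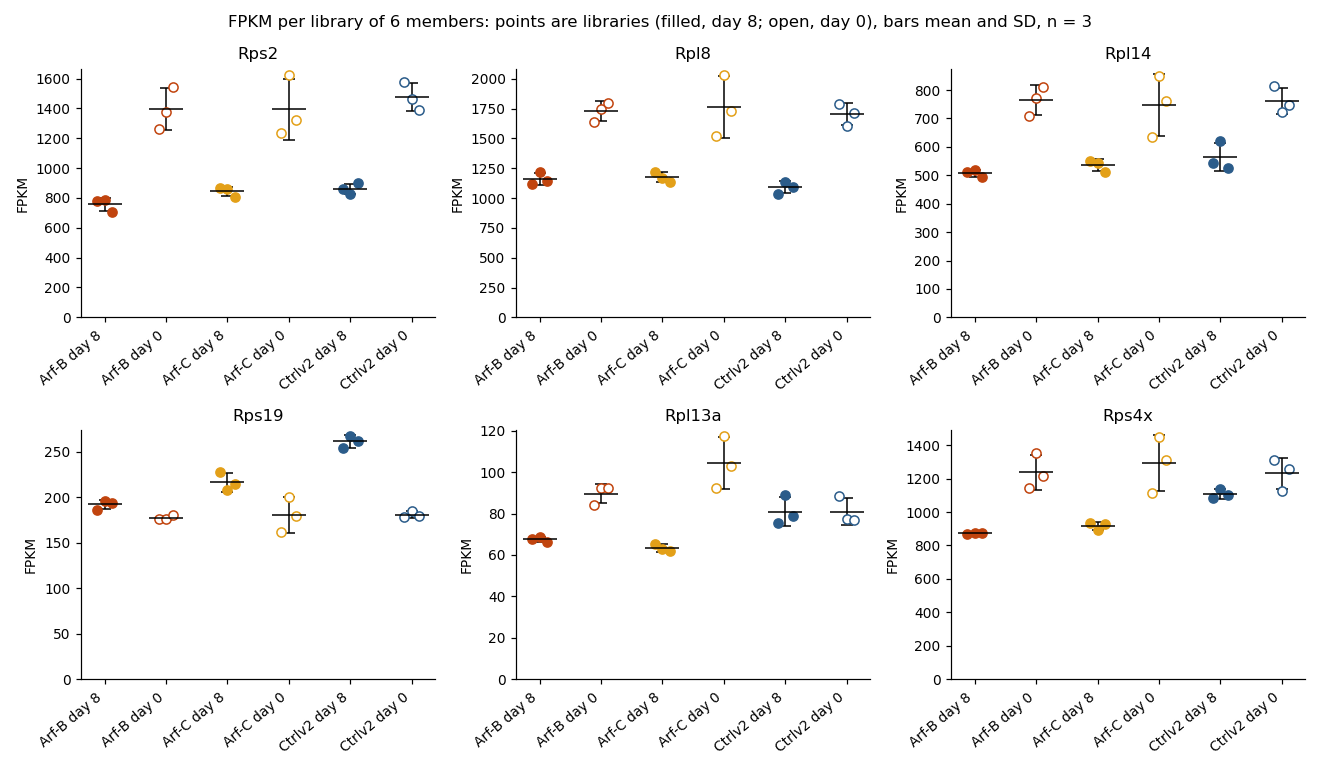
Level in FPKM of Rps2, Rpl8, Rpl14, Rps19, Rpl13a and Rps4x in each of the 18 libraries (points) with the mean and SD of each group (bars), n = 3 libraries per group. Rps2, Rpl8 and Rpl14 were lower at day 8 in every line, Rps19 was highest in Ctrlv2 at day 8, and Rpl13a and Rps4x separated the Arf lines from Ctrlv2 at day 8.

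By subunit, 28 of 46 large-subunit members fell in Arf-B, 21 in Arf-C and 23 in Ctrlv2 (60.9%, 45.7% and 50%). Of the 29 small-subunit members, 12, 11 and 7 fell (41.4%, 37.9% and 24.1%). Over all genes tested, 33.8%, 33.8% and 34.4% fell, so the small-subunit share was near that in Arf-C and below it in Ctrlv2. The median changes were -0.32, -0.22 and -0.25 for the large subunit and -0.21, -0.11 and -0.14 for the small subunit in Arf-B, Arf-C and Ctrlv2. The ratio of summed large-subunit to summed small-subunit FPKM was 1.42 ± 0.01 at day 8 and 1.498 ± 0.021 at day 0 in Arf-B. It was 1.43 ± 0.01 and 1.499 ± 0.015 in Arf-C, and 1.33 ± 0.02 and 1.41 ± 0.03 in Ctrlv2, again with day 8 first (SD, n = 3). The ratio was thus lower at day 8 in each line, and a ratio within a library is not touched by scaling. Whether the subunits differed in their change was not tested.

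All 3 stalk proteins fell in Arf-B, and 2 of them fell in Arf-C and in Ctrlv2, where 33.8%, 33.8% and 34.4% of all genes fell. Rplp0, the base of the stalk, fell by 0.40 in Arf-B, 0.53 in Arf-C and 0.32 in Ctrlv2. Rplp1, the most abundant member, had 2109.8, 2260.4 and 2051 FPKM at day 8, against 2832, 3055 and 3164 FPKM at day 0 in Arf-B. Its log2 change was -0.49 ± 0.09 in Arf-B (adjusted p 0.000173), -0.32 ± 0.09 in Arf-C (adjusted p 0.00625) and -0.19 ± 0.09 in Ctrlv2 (adjusted p 0.0859), so the call was missed in Ctrlv2. Rplp2, the partner of Rplp1, fell in Arf-B (-0.26) and Ctrlv2 (-0.27) and had a change of -0.11 in Arf-C (adjusted p 0.349). In Arf-C, the call of Rplp1 was lost under both other scalings, as were those of Rplp2 in Arf-B and Ctrlv2.

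A list of 7 members that bind Mdm2, which need not be complete, held Rpl5, Rpl11, Rpl23, Rpl26, Rps7, Rps14 and Rps27. Of these 7, 2 fell in Arf-B (28.6%), 1 in Arf-C (14.3%) and 1 in Ctrlv2 (14.3%), and none rose. Over all genes tested, 33.8%, 33.8% and 34.4% fell in these lines. Rpl5, which with Rpl11 and 5S rRNA forms the particle that blocks Mdm2, was the member that fell in all 3 lines. It averaged 376 ± 8.07 FPKM at day 8 and 459 ± 32.3 FPKM at day 0 in Arf-B, and fell by 0.28 in Arf-B, 0.23 in Arf-C and 0.18 in Ctrlv2, where the groups overlapped in Ctrlv2. All 3 calls were lost under both other scalings. Rpl11 fell in Arf-B (-0.34, adjusted p 0.00678), with changes of -0.17 in Arf-C and -0.21 in Ctrlv2 that did not pass, and its Arf-B call was likewise lost under both other scalings. Rpl23, Rpl26, Rps7, Rps14 and Rps27 passed in no line, and Rps27 had positive values of 0.06, 0.21 and 0.20.

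Among 11 members mutated in Diamond-Blackfan anaemia in humans, an inherited failure of red cell production, 6 fell in Arf-B, 5 in Arf-C and 5 in Ctrlv2, and Rps19 rose in Arf-C and Ctrlv2. The shares that fell were 54.5%, 45.5% and 45.5%, beside 33.8%, 33.8% and 34.4% of all genes. Rpl22, the member whose pattern over libraries was most like the rest (r = 0.98), fell in Arf-B (-0.34) and Ctrlv2 (-0.25) and had a change of -0.20 in Arf-C (adjusted p 0.055). Rpl38, which in mouse embryos is needed for translation of Hox mRNAs, fell in Arf-B (-0.36) and Ctrlv2 (-0.52) and had -0.16 in Arf-C. Both calls of Rpl22 and the Arf-B call of Rpl38 were lost under both other scalings, the Rpl22 call in Ctrlv2 also without any of 3 single libraries and the Rpl38 call in Arf-B without any of 4. Rps6, the substrate of S6 kinase, passed in no line, with -0.09, -0.09 and 0.10 in Arf-B, Arf-C and Ctrlv2. Rpl41, the shortest ribosomal protein, fell in Ctrlv2 (-0.50 ± 0.15, adjusted p 0.00732), with -0.32 in Arf-B and -0.21 in Arf-C that did not pass.

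In Arf-C and Ctrlv2, the largest falls by size belonged to members whose replicates lay far apart. Rpl21 was at -0.02 in Arf-B, and fell in Arf-C (-0.97 ± 0.30) and in Ctrlv2 (-1.17 ± 0.30). Rps27a, which is made as a fusion with ubiquitin, fell in Arf-C and Ctrlv2 by 0.94 and 0.84. Its day-8 libraries held 341, 168 and 155 FPKM in Arf-C and 128, 276 and 293 FPKM in Ctrlv2, so single libraries of a group differed by more than 2-fold. Rpl30 fell in Arf-C (-1.35), where its day-8 libraries held 20.9, 6.99 and 9.04 FPKM, and Rpl7a fell in Ctrlv2 (-0.93). For Rps27a and Rpl7a, leaving out 1 of several libraries ended the call. Both calls of Rps27a were also lost with equal FPKM sums, and that in Ctrlv2 at the same total of reads and with no filter.

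Rps19, a small-subunit protein that is needed to mature 18S rRNA (chr7:24884371-24889806), was higher at day 8. It had 186, 196 and 194 FPKM at day 8, against 176, 175 and 179.8 FPKM at day 0 in Arf-B. In Arf-C its level was 227, 207 and 214 FPKM at day 8, against 162, 200.6 and 179 FPKM at day 0. In Ctrlv2 its level was 254, 268 and 262 FPKM at day 8, against 178, 185 and 179 FPKM at day 0. The 9 day-0 libraries lay together between 162 and 200.6 FPKM, and the day-8 libraries stood highest in Ctrlv2, then Arf-C, then Arf-B, without overlap between the lines.

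Its change was 0.12 ± 0.06 in Arf-B (adjusted p 0.129), which did not pass, and it rose by 0.26 ± 0.06 in Arf-C (adjusted p 0.00193) and by 0.53 ± 0.06 in Ctrlv2 (adjusted p 2.10e-06). The response was smaller than that of Ctrlv2 by 0.41 in Arf-B (adjusted p 0.0027) and by 0.26 in Arf-C (adjusted p 0.0325), both tested as an interaction. The Arf-B difference was lost under no alternative, and the Arf-C difference was lost without any of 8 single libraries, at the same total of reads, with no filter and with only the groups compared. At day 8, Rps19 was lower in Arf-B than in Ctrlv2 by 0.44 and in Arf-C by 0.27, and these comparisons share the Ctrlv2 libraries. Of its 50-base stretches, 80.5% are shared with other genes. Rpl10, at the ribosome's P site and encoded on the X, was the other member that rose in Ctrlv2 (0.22, adjusted p 0.0222), a call that leaving out any of 4 libraries ended.

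Rpl13a, a large-subunit protein that is not needed for translation itself in human cells (chr7:45125558-45128761), fell in the Arf lines and not in Ctrlv2. Arf-B had 67.9, 68.5 and 66.3 FPKM at day 8, against 84.2, 92.4 and 92.1 FPKM at day 0. Arf-C had 65.4, 63.1 and 61.8 FPKM at day 8, against 92.4, 117 and 103 FPKM at day 0. Ctrlv2 had 75.2, 88.8 and 78.9 FPKM at day 8, against 88.4, 77.2 and 77.0 FPKM at day 0. The Arf-B and Arf-C values of the 2 days were separate, and those of Ctrlv2 overlapped.

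The log2 changes of Rpl13a were -0.40 ± 0.08 in Arf-B, -0.70 ± 0.08 in Arf-C and 0.00 ± 0.08 in Ctrlv2. Its response differed from that of Ctrlv2 by -0.40 ± 0.12 in Arf-B (adjusted p 0.0148) and by -0.70 ± 0.12 in Arf-C (adjusted p 0.000244), and neither call was lost under any alternative or left-out library. Part of the Arf-C value came from day 0, where Rpl13a was higher in Arf-C than in Ctrlv2 by 0.36 (adjusted p 0.00243). Of its stretches, 97.5% are shared with other genes, so its level is uncertain.

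Rps4x, a small-subunit protein encoded on the X (chrX:102184941-102189394), had 867, 877 and 872 FPKM at day 8, against 1147, 1351 and 1215 FPKM at day 0 in Arf-B. For Arf-C the values were 932, 890.1 and 926 FPKM at day 8, against 1114, 1447 and 1312 FPKM at day 0. For Ctrlv2 they were 1083, 1139 and 1099 FPKM at day 8, against 1309.6, 1126 and 1258 FPKM at day 0. It fell by 0.50 in Arf-B and 0.49 in Arf-C, and the change of -0.15 in Ctrlv2 did not pass (adjusted p 0.132). The responses differed from that of Ctrlv2 by -0.35 and -0.34 (adjusted p 0.0364 and 0.0396), calls that were lost at the same total of reads and without several single libraries. Of the other X-linked members, Rpl39, in the exit tunnel, fell in all 3 lines by 0.46, 0.29 and 0.32 in Arf-B, Arf-C and Ctrlv2 (the Arf-C call was lost under both other scalings and without any of 4 single libraries, the Ctrlv2 call with equal FPKM sums and without Ctrlv2 day-8 replicate 3), and Rpl36a passed in none (-0.11, 0.09 and 0.10).

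In all, the day response of 7 members was lower in Arf-B than in Ctrlv2 and that of 1 was higher, where 16.1% of all genes were lower and 17.5% higher (33.5% in all). Besides Rps19, Rpl13a and Rps4x these were Rps3 (-0.39), at the mRNA entry channel, Rps9 (-0.38), Rpl9 (-0.35), Rpl10 (-0.31) and, on the higher side, Rpl21 (1.15). In Arf-C, Rps19, Rpl13a and Rps4x were lower and none higher, against 18.9% and 19.4% of all genes (38.3% in all). The median difference of the members was -0.10 in Arf-B and -0.02 in Arf-C, beside 0.005 over all genes in both comparisons. Scaling every library to the same total of reads left 2 members lower in Arf-B and 1 in Arf-C, where 12.5% and 15.5% of all genes were lower. Leaving out single libraries gave 2 to 8 lower members in Arf-B and 1 to 9 in Arf-C, with the highest number without Arf-C day-0 replicate 1 in both.

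At day 0 few ribosomal protein genes differed between the Arf lines and Ctrlv2. In Arf-B, 3 members were lower than in Ctrlv2 and 2 higher, against 20% and 19.1% of all genes (39% in all). In Arf-C, 6 were lower and 3 higher, against 21.5% and 21.2% of all genes (42.8% in all). The median difference was -0.02 in Arf-B and -0.01 in Arf-C, beside 0.00 over all genes in both comparisons. The Arf-C counts became 14 lower without Arf-C day-0 replicate 2 and 15 higher without Arf-C day-0 replicate 1. Rps25, of the small subunit, was lower in both, with 262, 304 and 303 FPKM in Arf-B and 248, 323 and 309 FPKM in Arf-C, against 365, 325 and 380.4 FPKM in Ctrlv2.

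The Rps25 groups did not overlap, and the differences were -0.30 ± 0.10 in Arf-B (adjusted p 0.0239) and -0.29 ± 0.10 in Arf-C (adjusted p 0.0272). Both calls of Rps25 were lost without Ctrlv2 day-0 replicate 1 or 3, that in Arf-B also without Arf-B day-0 replicate 1 and that in Arf-C also without Arf-C day-0 replicate 1. Rps21 was also lower in Arf-B and Arf-C (-0.32 and -0.37), and its Arf-B call was lost without any of 9 single libraries. Rps16, Rpl37a and Rpl35a were among those lower in Arf-C, with -0.33, -0.52 and -0.25. The higher members were low in level: Rpl24 in both (0.60 and 0.54, at no more than 2.34 FPKM in any library), Rps10 in Arf-B (0.21) and Rpl29 (0.51) in Arf-C, beside Rpl13a in Arf-C. With the reads of its pseudogene rows added, the difference of Rps10 turned to -0.13. The calls of Rps10 and Rpl29 were lost under both other scalings, and without any of 11 and 10 single libraries. That of Rpl24 was lost without any of 2 single libraries in Arf-B and of 4 in Arf-C. Rps19, Rps2, Rpl8, the stalk proteins and the 7 members listed for Mdm2 binding passed in neither line at day 0.

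At day 8 the Arf lines were again set against Ctrlv2. In Arf-B, 14 members were lower and 2 higher, against 16.9% and 16.3% of all genes (33.2% in all), so the share lower (18.7%) is near that of all genes. In Arf-C, 3 were lower and 2 higher, against 16.8% and 16.8% of all genes (33.6% in all). The median difference was -0.13 in Arf-B and -0.03 in Arf-C, beside 0.01 over all genes in both comparisons. At the same total of reads it was -0.04 and 0.04, while the median over all genes shifted to 0.07 and 0.06. The members' median minus that of all genes was -0.14 and -0.04 in the deposited scaling, and -0.11 and -0.02 at the same total of reads. Without Ctrlv2 day-8 replicate 2, Arf-B day-8 replicate 1 or Arf-B day-8 replicate 3, the members lower in Arf-B numbered 5, 6 and 7. Without Arf-C day-0 replicate 1 or 2, which enter through the shared spread, those lower in Arf-C numbered 5. Summed over all 75 members, the level was 34330 ± 1137 FPKM in Arf-B, 37121 ± 1623 FPKM in Arf-C and 37812 ± 1798 FPKM in Ctrlv2 (SD, n = 3).

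Rps19 and Rps21 (-0.37) were among the members lower in Arf-B at day 8, as was Rps3 with 365, 363 and 340.1 FPKM in Arf-B, against 432, 467 and 459 FPKM in Ctrlv2 (-0.35 ± 0.09, adjusted p 0.00747). No library of Arf-B reached the lowest of Ctrlv2 for Rps3, which has few shared stretches, and no alternative ended this call. Rps4x (-0.34), Rpl9 (-0.33), Rps16 (-0.32), Rpl10 (-0.28), Rps20 (-0.27), Rpl23 (-0.26), Rpl13a (-0.26) and Rpl31 (-0.22) were also lower. In Arf-C, Rpl13a (-0.34), Rps4x (-0.27) and Rps19 (-0.27) were the members lower, all of them also lower in Arf-B. Of the 7 members listed for Mdm2 binding, Rpl23 was thus lower in Arf-B at day 8, and none of the 7 passed in Arf-C. The Arf-B call of Rpl23 was lost under both other scalings and without any of 3 single libraries. At the same total of reads, the Rps21 call in Arf-B and the Rps4x call in Arf-C were lost. The Rps21 call was also lost without any of 3 single libraries, and that Rps4x call without either of 2. The call of Rpl13a in Arf-B was lost under both other scalings, with no filter and without any of 4 single libraries.

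The members higher at day 8 were Rps10 in both Arf lines (0.42 and 0.24), Rpl34 in Arf-B (0.40) and Rpl29 in Arf-C (0.72). Rps10 was at 5.66, 5.21 and 5.03 FPKM in Arf-B and 4.81, 4.98 and 4.03 FPKM in Arf-C, against 3.65, 3.59 and 3.93 FPKM in Ctrlv2. Its groups did not overlap, and its Arf-C call was lost without any of 4 single libraries. Rpl29 averaged 2.38 ± 0.77 FPKM in Arf-C and 1.04 ± 0.44 FPKM in Ctrlv2 (SD, n = 3), and these groups overlapped. The Rpl29 call was lost without Arf-C day-8 replicate 2. With pseudogene reads added, the values for Rps10 were 0.01 in Arf-B and 0.06 in Arf-C, and that for Rpl34 in Arf-B turned to -0.13 and none of these passed.

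Between the Arf lines no member passed at either day. At day 0, 0 members were called (limma, Benjamini-Hochberg) and 2 had an unadjusted p under 0.05, where 0.105% of all genes were higher in Arf-B and 0.238% lower (0.343% in all). At day 8, 0 members were called and 5 had an unadjusted p under 0.05, where 0.0349% of all genes were higher and 0.0233% lower (0.0581% in all). The sign was still uneven at day 8, with 67 of 75 members lower in Arf-B than in Arf-C by a median of 0.11, against a median of 0.00 over all genes. With members that move as a block between libraries, those 67 are not independent values. Rps19 had the smallest p (-0.17 ± 0.06, adjusted p 0.818), and its libraries did not overlap.

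The changes of the members over the 8 days were alike in the 3 lines, which share no libraries. Over the 70 members with a within-group SD of at most 0.3, the log2 changes of Arf-B and Arf-C had a correlation of 0.81, those of Arf-B and Ctrlv2 of 0.74, and those of Arf-C and Ctrlv2 of 0.64. With all 75 members the values were 0.55, 0.51 and 0.61. These are descriptions across genes that share libraries within each line.

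Pyrimidine tracts of the kind that marks TOP mRNAs lay at a larger share of the members' start sites than of all start sites. RefSeq (GRCm38.p6) gave 65 promoter windows for 55 of the 75 members, each of 250 bases before and 50 from the annotated start on, beside 32851 windows for all genes. A pyrimidine tract (the letters CTTTC or CTTCC, or else the letters CTCTT, or in the last case CTTTT, on the gene strand, between 10 bases before the start and 15 after it) was in 26 of the 65 member windows and in 12.5% of all windows (40% of the members' own). Its reverse complement was in 12.3% and 12.9%. Examples with long tracts are given for 4 members, from 40 bases before the start to 20 from it on, with the tract in capitals.
Rpl7a (chr2:26910767-26910826, plus strand): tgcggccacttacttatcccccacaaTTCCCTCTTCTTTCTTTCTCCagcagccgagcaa
Rpl14 (chr9:120571477-120571536, plus strand): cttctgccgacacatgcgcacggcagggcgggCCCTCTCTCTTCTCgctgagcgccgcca
Rpl35a (chr16:33056442-33056501, plus strand): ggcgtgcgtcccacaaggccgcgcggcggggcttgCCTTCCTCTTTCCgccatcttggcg
Rps18 (chr17:33955646-33955705, minus strand): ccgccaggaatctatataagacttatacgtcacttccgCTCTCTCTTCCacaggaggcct

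Of motifs for factors known at such promoters, that of the ETS family (CCGGAAGT, both strands) was in 15.4% of the members' windows and 3.89% of all, and that of YY1 (AAGATGGC) in 10.8% and 2.75%. The GC box (GGGCGG) was in 60% and 35.7%, and the E-box bound by Myc and other factors (CACGTG) in 12.3% and 7.15%. The letters CTTCC also lie within the reverse complement of the ETS motif, and matches of different motifs can share bases at their ends. A match describes these letters in this window and is not a measured binding site.

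Genes outside the members put the drift in context, from lists chosen with earlier results of these data known. Over all genes tested, 33.8%, 33.8% and 34.4% fell and 32.9%, 32.8% and 33.9% rose in Arf-B, Arf-C and Ctrlv2. All 18 genes of ribosome assembly and RNA polymerase I fell in each line, with median changes of -0.86 in Arf-B, -0.65 in Arf-C and -0.77 in Ctrlv2. Rrn3, the initiation factor of polymerase I, fell by 1.56, 1.47 and 1.37 in these lines. Dkc1, the pseudouridine synthase, fell by 1.00, 0.98 and 1.27, and Nop56, of the methylation complex, by 1.28, 1.22 and 0.75. The mitochondrial ribosomal proteins, which serve the separate ribosome of that organelle, fell in 66, 64 and 66 of 77 cases, with medians of -0.71, -0.61 and -0.67. The medians of the cytosolic members were -0.29, -0.20 and -0.19, and the difference between the lists was not tested.

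The 14 regulators of TOP mRNAs and ribosome production fell in 8 cases in Arf-B, 11 in Arf-C and 9 in Ctrlv2. Eif4ebp1, the brake on eIF4E that mTOR inactivates, fell by 1.27, 1.33 and 1.23, and Mycn by 1.19, 0.68 and 1.17. Myc fell by 0.64, 0.60 and 0.88, and was lower in the Arf lines than in Ctrlv2 at day 0 (-1.01 and -1.19) and at day 8 (-0.77 and -0.91). Larp1, named for its role, fell by 0.59, 0.40 and 0.44. Mtor fell in Ctrlv2 alone among the calls (-0.51, against 0.04 and 0.11 in Arf-B and Arf-C), and its response differed from that of Ctrlv2 by 0.55 and 0.62 in the Arf lines. Of 16 further elongation factors and mRNAs of the TOP class, 5 fell and 1 rose in Arf-B, 3 and 2 in Arf-C, and 4 and 4 in Ctrlv2. Tpt1, a TOP mRNA, rose by 0.82, 0.76 and 1.28.

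Paralogs, which are second copies of a member with their own expression, were tested as a separate list. This list also held Rpl9-ps6 and Rpl36-ps3, rows with pseudogene symbols that count again among the pseudogene rows. Of the 11 in the list, 7 fell in Arf-B, 5 in Arf-C and 6 in Ctrlv2, so these counts are not of paralogs alone. Rpl10l, a copy of Rpl10 that acts in the testis, had 44.3, 44.4 and 50.6 FPKM at day 8 and 129, 139 and 138 FPKM at day 0 in Arf-B. It fell by 1.52, 1.28 and 2.04 in Arf-B, Arf-C and Ctrlv2. Rpl39l, a copy of Rpl39, fell by 2.05, 1.45 and 1.05, and was lower in the Arf lines than in Ctrlv2 also at day 0 (-0.79 and -1.002). Its day-8 libraries held 8.83, 9.97 and 11.1 FPKM in Arf-B and 9.75, 13.6 and 17.5 FPKM in Arf-C, against 33.6, 44.0 and 33.1 FPKM in Ctrlv2. Rpl22l1, the copy of Rpl22, was lower in Arf-B and Arf-C than in Ctrlv2 at day 0 (-0.34 and -0.60) and day 8 (-0.51 and -0.45).

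Proteins of the ribosome whose symbol has another form also fell in part. Rpsa fell in Arf-B (-0.27) and Arf-C (-0.35) and had -0.06 in Ctrlv2, and Rack1, a signalling scaffold on the small subunit, fell by 0.28 and 0.38 in the Arf lines, with -0.01 in Ctrlv2. Of the 5 tested, 4 fell in Arf-B, 3 in Arf-C and 1 in Ctrlv2. Of 5 genes around Mdm2, Mdm2 rose by 0.42, 0.38 and 1.29 in Arf-B, Arf-C and Ctrlv2, a response that differed by -0.87 and -0.91 in the Arf lines. Trp53 fell by 1.04, 1.19 and 1.63, and Cdkn1a, a p53 target that stops the cell cycle, rose by 1.33, 1.07 and 1.78.

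Of 10 chaperones and importins of ribosomal proteins tested, 7 fell in Arf-B, 7 in Arf-C and 6 in Ctrlv2. Tsr2, the chaperone of Rps26 in yeast, fell by 1.05, 0.88 and 0.83, and Bccip, which escorts Rpl23 in human cells, by 1.19, 1.05 and 1.18. Among 7 genes that resolve stalled ribosomes, Pelo, which rescues them, rose by 1.14, 1.24 and 0.43, and Nemf, which marks the stuck chain, rose in Ctrlv2 (0.53), fell in Arf-C (-0.42) and had -0.12 in Arf-B. The 103 tested pseudogene rows named for members fell in 17, 21 and 14 cases and rose in 1, 2 and 10 in Arf-B, Arf-C and Ctrlv2.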

How the data were processed

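Poly(A) RNA of 18 libraries was measured in 3 lines at 2 days. The authors deposited a table of FPKM per gene; per the submitters' processing notes, reads were processed with HISAT2, featureCounts and DESeq2 on mm10 (versions and settings not given in the sources used here). Dividing each FPKM by the value of 1 read of that gene in its library gave whole reads within 0.001 for all 413772 values above 0, which gave depths of 10432590 to 33311220 reads. FPKM was not treated as a count: log2(FPKM + 1) was fitted with limma 3.58.1 in R 4.3.3 (1 mean per group over 6 groups, trend and robust variance, a floor of 0.5 FPKM reached by 3 or more libraries, which kept 17200 genes), with contrasts for 11 comparisons and Benjamini-Hochberg adjustment. A fold on this scale understates changes of low genes, and FPKM levels are limited by the number of reads. The fitting code was tested on simulated data. Summaries and figures used Python 3.11.15 (pandas 2.3.3, numpy 2.4.6, matplotlib 3.10.9).

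The members and all lists were chosen with earlier results of these data known. Named were the 3 largest rises and falls among called members whose groups do not overlap, members with set roles, the 5 highest and 5 lowest members, the 3 least like the rest and the 3 other genes most like them. Further called members between lines, and the 6 that fell under every scaling, were named after their values were seen. From the other lists, genes with the largest called changes were named. Alternatives were another pseudocount, filter or scaling, only the groups compared, a replicate block and each library left out. Results of some members are not reported here. Adding pseudogene reads to the parent gene was chosen after seeing the data.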

Additional observations from a re-analysis of the deposited data

Results flagged for a closer look

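The results below stand out because the change from day 0 to day 8 differed between an Arf line and Ctrlv2 in a test of the difference itself (limma, adjusted p under 0.05), with 3 libraries per group. Values are the response of the Arf line minus that of Ctrlv2 on the log2(FPKM + 1) scale, and the 2 lines were each set against the same Ctrlv2 libraries. In Arf-B, Rps19 differed by -0.4128, Rpl13a by -0.4023, Rps3 by -0.3897, Rps9 by -0.3773, Rps4x by -0.35, Rpl9 by -0.35, Rpl10 by -0.3081 and Rpl21 by 1.1549. In Arf-C, Rpl13a differed by -0.7033, Rps4x by -0.3356 and Rps19 by -0.264.

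Rps19 and Rpl13a in Arf-B, and Rpl13a in Arf-C, kept their call under every alternative and left-out library run. The call of Rpl21 was lost under 5 alternatives, one of which adds the reads of its pseudogenes, and its replicates lay far apart. At day 8, summed stem cell markers were 153 to 211 FPKM in Arf-B and 125 to 232 FPKM in Arf-C, against 46.1 to 56.4 FPKM in Ctrlv2. Their part in these differences was not tested.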

How the results depend on the processing

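Counts of members that changed depended on the scaling of the libraries and on single libraries. At the same total of reads, members higher and lower from day 0 to day 8 numbered 3 and 20 in Arf-B, 8 and 15 in Arf-C and 5 and 18 in Ctrlv2, and with equal FPKM sums 9 and 20, 17 and 14, and 13 and 17. The log2 ratio of the summed member FPKM, day 8 over day 0, was -0.13, -0.042 and -0.11 in Arf-B, Arf-C and Ctrlv2 at the same total of reads and -0.081, -0.014 and -0.061 at equal FPKM sums. In brackets after the counts below is the share of all genes called that way under the same setting (1 member is 1.33% of 75). With equal FPKM sums, 7 members were higher (16%) and 5 lower (15.2%) in Arf-B than in Ctrlv2 at day 0. In Arf-C at day 0, 10 were higher (17.6%). At day 8, 5 were higher (20.7%) in Arf-B and 8 lower, or 10.7% of members (9.07%), and 5 were higher in Arf-C (18.7%). The Arf-C difference in response had 4 higher (18%). At the same total of reads, 1 was higher in Arf-B at day 0 (18.3%) and 7 lower in Arf-B at day 8 (12.8%). The Arf-B difference then had 2 lower (12.5%), and the Arf-C difference 1 higher (22.4%) and 1 lower (15.5%). Without a filter on low values, 1 was higher in Arf-B at day 0, 1 in Arf-C at day 0 and 1 in Arf-C at day 8, 9 were lower in Arf-B at day 8, 0 were higher and 2 lower in the Arf-B difference, and 1 was lower in the Arf-C difference. With only the groups compared in the fit, 19 fell in Arf-C (33.4%). At day 0, 1 was higher in Arf-B (14.8%) and 1 lower in Arf-C (19.1%). The Arf-B difference then had 0 higher (16.5%) and the Arf-C difference 1 lower (16.7%). A pseudocount of 0.1, and a filter at a mean of 1 FPKM, each left 0 higher in the Arf-B difference (17.2% and 19.2%). With pseudogene reads added, 1 was higher in Arf-B at day 0 (19.2%) and 0 in the Arf-B difference (17.6%). At day 8, 0 were then higher in Arf-B (16.4%) and 1 in Arf-C (16.9%). Under that setting Rps10 in Arf-B at day 0 turned to -0.13 (adjusted p 0.256) and Rpl34 in Arf-B at day 8 to -0.13 (adjusted p 0.402, limma); the cause of the other changes was not tested.

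Leaving out 1 library at a time gave 0 higher and 33 to 43 lower members from day 0 to day 8 in Arf-B, 1 to 3 and 17 to 48 in Arf-C, and 1 to 3 and 18 to 37 in Ctrlv2. Against Ctrlv2 at day 0 it gave 0 to 4 higher and 1 to 6 lower in Arf-B, and 1 to 15 and 2 to 14 in Arf-C. At day 8 it gave 2 to 3 higher and 5 to 17 lower in Arf-B, and 0 to 2 and 2 to 5 in Arf-C. The differences in response gave 0 to 1 higher and 2 to 8 lower in Arf-B, and 0 to 7 and 1 to 9 in Arf-C. Shares of all genes were not taken for these fits with a library left out. Of 98 named calls, 45 were lost under no alternative and no left-out library. With a replicate block, 41, 31 and 31 members fell in Arf-B, Arf-C and Ctrlv2 (33.6%, 33.6% and 34.3% of all genes). Of the 98 named calls, 3 were then lost. In 0 of 9 comparisons did the deviations of every same-numbered pair of libraries correlate above 0.1 (correlations of -0.25 to 0.20). The highest, 0.20, was for replicate 1 of Arf-B and Arf-C at day 0. With so few libraries per group, this cannot tell whether same-numbered libraries share a batch or culture. The log2(FPKM + 1) scale understates changes of the 5 members below 20 FPKM most.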
